A study of Schmidtea mediterranea with 24 samples.

Results

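Among the transcripts enriched in mmp-1+ cells of the planarian Schmidtea mediterranea, 14 of 36035 gene identifiers were also higher in tail fragments 48 h after amputation than in intact worms. They were picked from read counts of sorted cells by their level in CPM, the reads of a gene scaled to 1000000 gene-assigned reads in its library. The mean of the highest group had to reach 10 CPM. The group mean, as log2(CPM + 1), had to be at least 0.8 higher in mmp-1+ than in mmp-1- cells at each of the 3 time points, and in mmp-1+ cells at least 0.585 higher at 48 h than in intact worms. The sort differences and the rise at 48 h are therefore properties of the choice. Values and counts of calls that use the same libraries describe the genes and support nothing. In the order of their rise, the genes are SMED30016062, SMED30005837, SMED30005604, SMED30007873, SMED30009082, SMED30027648, SMED30020664, SMED30020824, SMED30031555, SMED30018782, SMED30025952, SMED30008250, SMED30023225 and SMED30031723. They go by these identifiers alone, since the sources used here pair none of them with a gene name, and no function is given to any of them.

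Planarians regrow missing body parts from neoblasts, stem cells that lie in the tissue between the organs and divide throughout adult life. The gene mmp-1 is named for the matrix metalloproteinases, enzymes outside or at the surface of cells that cut proteins of the extracellular matrix. Such enzymes take part in matrix turnover and in the remodelling of tissue after injury.

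Sorted cells came from wildtype worms in 6 groups of 3 libraries: mmp-1+ cells and mmp-1- cells, each taken from intact worms, or from tails 6 h and 48 h after the cut. Each replicate used 100 worms starved for 11 days. They were dissociated and fixed with ACME and the mmp-1 RNA was marked with fluorescent probes by hybridization chain reaction, which amplifies the label on its target in the cell. A pool of 1000 cells of each population was sorted into each library. No identifier is paired with mmp-1 in the sources used here, so its own level in the sorted cells was not checked. Intact samples were whole worms and amputated samples were tails, so the effect of injury and the difference between body regions cannot be told apart. Within a sorted pool, more cells that express a gene and more of its RNA per cell cannot be told apart either. The second data set was 4 Slide-seqV2 sections, all labelled WT (wildtype), in which barcoded beads capture the RNA of a tissue section at known positions. A frozen block for each time point held 8 to 9 tail fragments around 1 intact animal, and a pair of neighbouring sections was cut from each block (2 per time point).

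Gene-assigned counts ranged from 52969393 to 66114382 per mmp-1+ library and from 55497823 to 63524266 per mmp-1- library. Several libraries stood apart from their group. Replicate 2 of intact mmp-1+ cells was the lowest of its group for all 14 genes. It was also the lowest for all 165 other genes that met the same limits on level and sort difference, called here the other sort-enriched genes. The summed level of those 165 genes was 78922 CPM in that library and 150077 and 158069 CPM in replicates 1 and 3. Replicate 2 of intact mmp-1- cells was the highest of its group for 12 of the 14 genes, and the 165 genes summed to 12811 CPM there, against 6197 and 5830 CPM in replicates 1 and 3. Both libraries lie on the side of a smaller sort difference. Among the 48 h mmp-1+ libraries, replicate 2 was the highest for 12 of the 14 genes and replicate 1 the lowest for 13, with 150164 and 108707 CPM for the 165 genes, and the size of the rise rests on these libraries. Replicate 3 of the 6 h mmp-1- cells was the highest of its group for 9 of the 14 genes, and the 165 genes summed to 14727 CPM there, against 8580 and 9350 CPM in replicates 1 and 2.

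A group of 4 of the 14 genes had the largest sort differences. In intact worms their mean CPM in mmp-1+ cells was 10.1 to 53.5 times that in mmp-1- cells. SMED30023225, which had the most reads of the 14, had 274, 127 and 278 CPM in intact animals, 271, 241 and 250.3 CPM after 6 h and 286, 434 and 359.7 CPM after 48 h in the mmp-1+ libraries. In mmp-1- cells it had 1.43, 10.3 and 0.965 CPM in intact animals, 5.81, 5.91 and 12.96 CPM after 6 h and 1.71, 13.9 and 9.45 CPM after 48 h. The mmp-1+ libraries at 48 h were all above those of intact worms, while the 6 h libraries lay within the intact range, and the lowest mmp-1+ library was far above the highest mmp-1- library. SMED30031555 had 96.6, 47.99 and 100.2 CPM in intact animals, 132, 119 and 128 CPM after 6 h and 133, 177 and 144 CPM after 48 h in the mmp-1+ libraries. In mmp-1- cells it had 0.205, 4.26 and 0.316 CPM in intact animals, 2.11, 3.84 and 8.01 CPM after 6 h and 0.955, 5.88 and 3.66 CPM after 48 h. Its mmp-1+ libraries did not overlap between the time points, in the order intact, 6 h and 48 h, although the highest 6 h and lowest 48 h libraries were nearly level. SMED30020824 had 51.2, 23.5 and 52.9 CPM in intact animals, 51.3, 52.7 and 49.4 CPM after 6 h and 67.3, 105 and 92.2 CPM after 48 h in mmp-1+ cells and 1.05 to 3.76 CPM over the 9 mmp-1- libraries. Its 6 h values were level with the intact replicates 1 and 3, and its 48 h libraries were all higher. SMED30016062 had 7.83, 3.45 and 6.89 CPM in intact animals, 11.5, 15.7 and 13.3 CPM after 6 h and 15.7, 25.03 and 24.1 CPM after 48 h in mmp-1+ cells and 0.432 to 1.03 CPM over the 9 mmp-1- libraries. Already at 6 h every library was above every intact one, and the lowest 48 h library was level with the highest one at 6 h.

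The other 10 genes had a smaller sort difference. In intact worms their mean CPM in mmp-1+ cells was 2.04 to 3.53 times that in mmp-1- cells. SMED30005837 had 52.9, 39.9 and 53.8 CPM in intact animals, 61.3, 51.7 and 54.5 CPM after 6 h and 132, 171 and 131 CPM after 48 h in mmp-1+ cells. SMED30005604 had 23.9, 17.2 and 23.3 CPM in intact animals, 24.8, 22.5 and 23.1 CPM after 6 h and 56.6, 72.3 and 61.8 CPM after 48 h in mmp-1+ cells. For both genes the 48 h values stood well clear of the intact and 6 h values, which overlapped each other. SMED30027648 showed the same order, with 20.3, 12.9 and 19.7 CPM in intact animals, 21.3, 19.9 and 20.05 CPM after 6 h and 30.4, 48.1 and 38.1 CPM after 48 h in mmp-1+ cells. SMED30018782 had 53.2, 32.4 and 53.7 CPM in intact animals, 47.5, 53.4 and 50.1 CPM after 6 h and 61.1, 89.7 and 90.2 CPM after 48 h in mmp-1+ cells. SMED30025952 had 112, 79.9 and 110.2 CPM in intact animals, 120.4, 102 and 110.3 CPM after 6 h and 139, 194 and 171 CPM after 48 h in mmp-1+ cells. In these 3 genes too, the 48 h libraries lay above all others and the 6 h libraries overlapped the intact ones.

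The 3 genes with the fewest reads in mmp-1+ cells at 48 h were SMED30007873, SMED30009082 and SMED30008250. SMED30007873 had 4.88, 2.71 and 4.76 CPM in intact animals, 3.59, 5.15 and 4.21 CPM after 6 h and 7.19, 14.7 and 10.2 CPM after 48 h in mmp-1+ cells. SMED30009082 had 5.31, 3.06 and 5.28 CPM in intact animals, 5.85, 5.78 and 4.83 CPM after 6 h and 8.36, 12.97 and 13.4 CPM after 48 h in mmp-1+ cells. SMED30008250 had 10.5, 6.90 and 9.18 CPM in intact animals, 7.41, 6.83 and 8.66 CPM after 6 h and 12.8, 18.01 and 14.1 CPM after 48 h in mmp-1+ cells. All 3 were higher at 48 h than in any intact or 6 h library, and SMED30008250 had its lowest library at 6 h. SMED30020664 had 26.5, 15.3 and 23.4 CPM in intact animals, 27.1, 32.5 and 27.5 CPM after 6 h and 34.9, 54.5 and 53.3 CPM after 48 h in mmp-1+ cells, so that its 3 time points did not overlap, with 48 h the highest. SMED30031723, the gene with the smallest rise, had 22.9, 15.6 and 21.6 CPM in intact animals, 29.4, 28.2 and 27.3 CPM after 6 h and 26.7, 37.03 and 29.3 CPM after 48 h in mmp-1+ cells. Its 6 h libraries were all above the intact ones, and its 48 h libraries spread around the 6 h values on both sides.

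**Figure D1:**
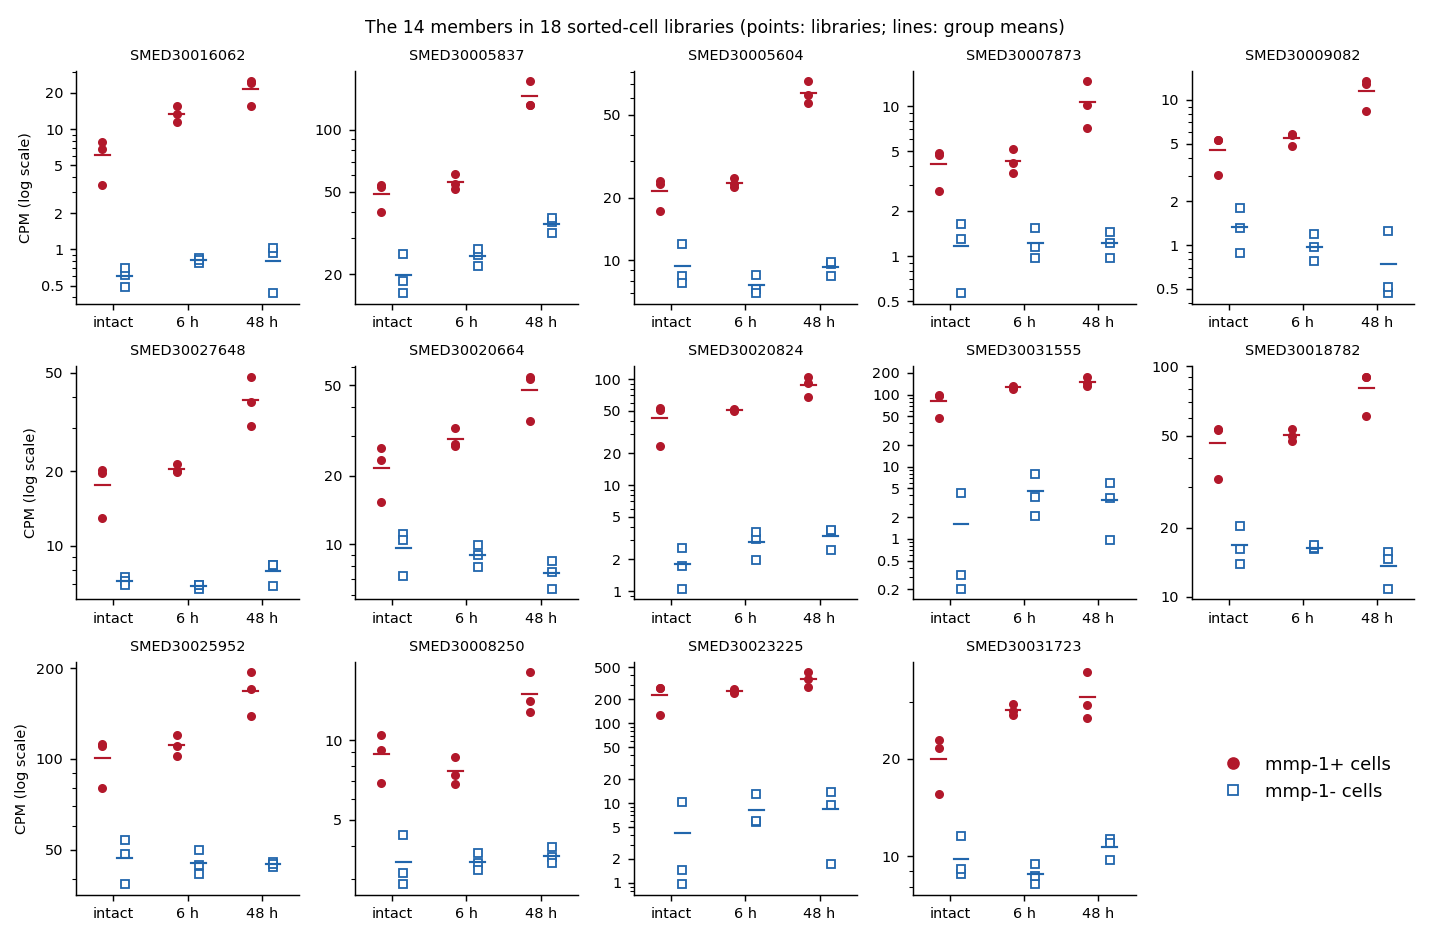
CPM of each of the 14 genes on a log axis in the 18 sorted-cell libraries, by time point; filled red circles are mmp-1+ libraries, open blue squares are mmp-1- libraries, and short lines are means of 3 libraries. In all 14 panels the 48 h mmp-1+ points lie above the intact mmp-1+ points, and every mmp-1+ point lies above every mmp-1- point of its time.

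Over the time course, most of the difference in mmp-1+ cells appeared after 6 h for most of the genes. All 3 libraries at 48 h were above all 3 at 6 h for 12 of the 14 genes, against 33.1% of the 10978 genes whose highest group mean reached 10 CPM. The exceptions were SMED30016062 and SMED30031723. Over those 10978 genes the split was uneven, with 11.1% lower in all 48 h than in all 6 h libraries. Likewise 23.2% were lower in all 6 h than in all intact libraries. The TMM factors of mmp-1+ libraries were 0.784 to 0.883 at 6 h and 0.880 to 0.964 at 48 h. The part of scaling in these counts was not tested. All 6 h libraries were above all intact libraries for 4 of the 14 genes, against 4.85% of those 10978 genes, namely SMED30016062, SMED30020664, SMED30031555 and SMED30031723. At 48 h against intact worms the count was 14 of 14 beside 19.3%, a count that the choice of the genes shaped. These comparisons share the libraries that chose the genes, so the counts are descriptions.

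The edgeR estimates followed the same time course. In mmp-1+ cells at 48 h against intact worms, SMED30016062 had the highest log2 fold change, at 1.79 (SE 0.26), followed by SMED30005837 at 1.53 (SE 0.18). The lowest were SMED30031723 at 0.60 (SE 0.17) and SMED30023225 at 0.62 (SE 0.62). The SE of SMED30023225 was as large as its estimate. At an adjusted p under 0.05, 12 of the 14 genes were called higher, all but SMED30031555 and SMED30023225, where 7.13% of 31435 genes were called higher. The choice used this contrast, so nothing is read from that count, and it was 7 without replicate 2 of the 48 h mmp-1+ cells. The other intervals share libraries with that contrast, so their counts are descriptions too. At 6 h against intact worms, 2 genes were called higher beside a background of 2.58% of genes, SMED30016062 (1.24, SE 0.26) and SMED30031723 (0.60, SE 0.17). SMED30031555 had the second highest estimate, 0.72 (SE 0.60), and was not called, and the lowest were 0.15 for SMED30007873 (SE 0.31) and -0.11 for SMED30008250 (SE 0.19). Only SMED30016062 remained called without replicate 2 of the intact mmp-1+ cells or without any 1 of the 6 h mmp-1+ libraries. At 48 h against 6 h, 6 genes were called higher beside a background of 4.56%, with SMED30005604 (1.30, SE 0.18) and SMED30005837 (1.24, SE 0.18) at the top. The lowest estimates there were for SMED30031723 (-0.00, SE 0.17) and SMED30031555 (0.12, SE 0.60). Without replicate 2 of the 48 h mmp-1+ cells the number called was 2.

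The other sort-enriched genes had a lower median difference between the same libraries. Their median difference at 48 h against intact worms in mmp-1+ cells, in log2(CPM + 1), was -0.21, and 42 of the 165 were above 0. The 14 genes had a median of 1.06, and all genes with a group mean of at least 10 CPM had a median of 0.01. At 6 h against intact worms the medians were close together, at 0.19 for the 14 genes and 0.13 for the 165, beside -0.10 for all genes. Since the 14 were taken from the 179 for their rise, the first of these gaps was set by the choice. Of the 165 genes, 25.5% were above 0.

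The 14 genes were also set against the other sort-enriched genes of their own library. The choice put the genes that rose into one list and the rest into the other, so a higher ratio at 48 h than in intact worms follows from it and is no support for the rise. Their summed CPM was 0.511% ± 0.029 of the summed CPM of the 165 genes in intact mmp-1+ cells, 0.483% ± 0.020 at 6 h and 0.979% ± 0.057 at 48 h (SD, n = 3 each). Replicate 2 of the intact cells, which was low for both sets of genes, had 0.541%, and replicates 1 and 3 had 0.507% and 0.483%. On this scale, which was added after the values by library had been seen, all 14 genes were above every intact library at 48 h and 2 of 14 were so at 6 h, SMED30016062 and SMED30031555. The relative rise at 48 h ran from 0.60 to 1.88 on the log2 scale, with a median of 1.11, and the relative difference at 6 h had a median of -0.15. Measured this way, replicate 2 of the intact mmp-1+ cells was no longer the lowest of its group.

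**Figure D2:**
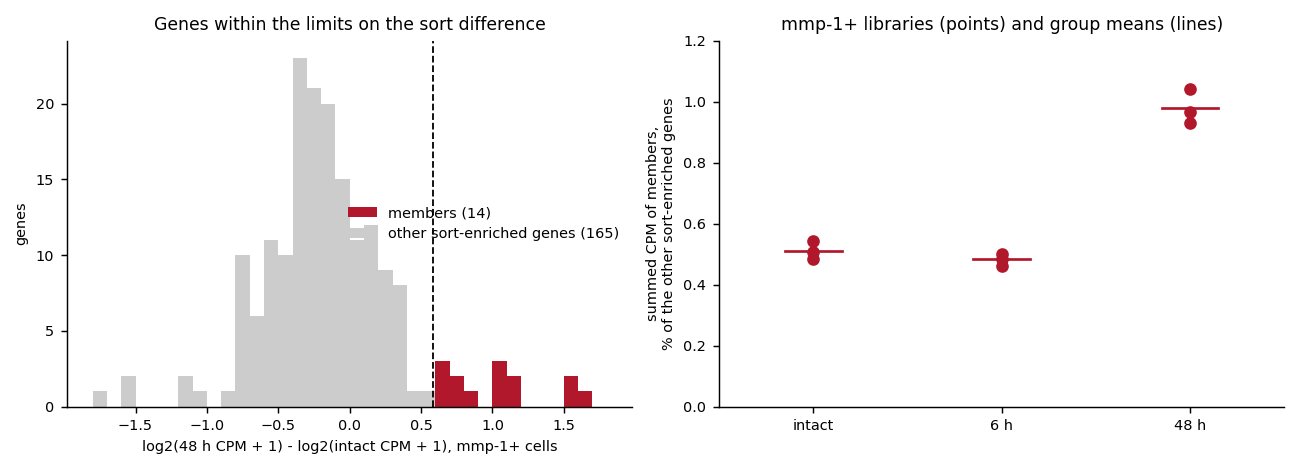
Left, the number of genes by their difference in log2(CPM + 1) between 48 h and intact mmp-1+ cells, for the 14 genes (red) and the 165 other sort-enriched genes (grey); the dashed line is the limit of 0.585. Right, the summed CPM of the 14 genes as a percentage of that of the 165 in each mmp-1+ library, with lines for group means; the 48 h libraries lie at 0.930% to 1.04%, above all intact and 6 h libraries.

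The ratio of mmp-1+ to mmp-1- cells was higher at 48 h than in intact worms for 12 of the 14 genes. The choice required a rise in mmp-1+ cells, so this count is a description. The matching edgeR difference was above 0 for 12 of the 14, 118 of the 165 other sort-enriched genes and 14742 of 31435 genes tested. SMED30009082 had the largest change, with a ratio of mean CPM of 3.42 in intact animals, 5.60 after 6 h and 15.5 after 48 h. SMED30005604 had ratios of 2.28 in intact animals, 3.10 after 6 h and 6.85 after 48 h, and SMED30020664 had 2.26, 3.24 and 6.38 at those times. The count of genes with a higher ratio of mean CPM at 48 h was 11 to 14 when 1 library was left out. For SMED30031555 and SMED30023225 the ratio was lower at 48 h. For SMED30031555 it was 51.2 in intact animals, 27.2 after 6 h and 43.2 after 48 h, and 53.5, 30.9 and 43.02 for SMED30023225 in that order. These intact ratios were lowered by replicate 2 of the intact mmp-1- cells. Without that library they were 313 for SMED30031555 and 189 for SMED30023225, and the edgeR log2 differences were 8.65 and 7.92 in place of 5.99 and 6.05. When replicate 2 of mmp-1- cells at 48 h was left out instead, both genes had a higher ratio at 48 h than in intact worms, at 65.6 and 64.5. In edgeR all 14 genes were called higher in mmp-1+ cells at each time, beside backgrounds of 4.86% in intact animals, 5.82% after 6 h and 4.39% after 48 h, which the choice required. The log2 fold changes spanned 1.35 (SMED30031723) to 6.05 (SMED30023225) in intact animals, 1.52 (SMED30008250) to 5.34 (SMED30023225) after 6 h and 1.87 (SMED30031723) to 5.76 (SMED30031555) after 48 h.

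The changes over time in mmp-1- cells were not themselves a limit of the choice. Those libraries entered it through the sort differences, so a gene with a strong rise in mmp-1- cells was less likely to be picked, and the counts below are read with that limit. At 48 h against intact worms, 1 of the 14 genes was called higher and 0 lower by edgeR, where 7.74% of 31435 genes were called higher and 9.85% lower. That gene was SMED30005837, with 35.9, 37.2 and 31.8 CPM at 48 h, against 18.6, 24.9 and 16.2 CPM in intact worms. All 48 h libraries were above all intact ones, with a log2 change of 0.77 (SE 0.18) at an edgeR adjusted p of 0.00542. It was called under all 25 alternative settings, at 0.63 to 0.99 and adjusted p 5.45e-04 to 0.033. Its values at 6 h, 22.02, 24.9 and 26.4 CPM, overlapped the intact ones. Of the 14 genes it was the only one whose 48 h mmp-1- libraries were all above the intact ones, which held for 27.3% of the 10978 genes.

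The remaining 13 genes did not pass the test in mmp-1- cells at 48 h. Over all 14 genes the median log2 fold change was 0.06, with 9 above and 5 below 0. Of the 165 other sort-enriched genes, 54 were called lower and 0 higher in the same contrast, with a median of -0.47, and over all genes tested the median was 0.00. The highest estimates among the 14 were 1.08 for SMED30031555 (SE 0.73, edgeR adjusted p 0.369) and 0.92 for SMED30023225 (SE 0.67, edgeR adjusted p 0.415). Replicate 2 of the intact mmp-1- cells lowered both estimates. There SMED30031555 had 4.26 CPM and SMED30023225 had 10.3 CPM, against at most 0.316 CPM and 1.43 CPM in the other intact mmp-1- replicates. Without that library the log2 fold changes were 3.73 (edgeR adjusted p 0.00248) and 2.78 (edgeR adjusted p 0.00531). SMED30020824 was then called too, so that 4 of the 14 genes were called higher. The share of all genes called in that fit is not given, and the 7.74% above belongs to the fit with all libraries. The summed level of the 165 other genes was also the highest of the intact mmp-1- group in replicate 2. The part of that library in these values was not tested. The lowest estimates were -0.88 for SMED30009082 (SE 0.37, edgeR adjusted p 0.114) and -0.41 for SMED30020664 (SE 0.21, edgeR adjusted p 0.218). SMED30009082 had 0.468, 1.26 and 0.513 CPM in mmp-1- cells at 48 h, against 1.31, 1.802 and 0.882 CPM in intact worms, and without replicate 2 at 48 h it was called lower (-1.48, edgeR adjusted p 0.0128). SMED30020664 had 6.38, 7.53 and 8.46 CPM at 48 h, against 11.1, 10.5 and 7.25 CPM in intact worms, and these overlapped.

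At the other intervals 0 of the 14 genes were called in mmp-1- cells. For 6 h against intact worms, edgeR, DESeq2 and limma with voom each called 0 of 14, where edgeR called 9.56% of all genes. An unadjusted edgeR p under 0.05 was found for 1 of the 14 genes and 7007 of all 31435. The estimates ran from -0.41 for SMED30009082 to 1.55 for SMED30031555 (SE 0.72, edgeR adjusted p 0.21). SMED30023225 was at 0.96 (SE 0.67) and SMED30005604 at -0.29 (SE 0.18). Without replicate 2 of the intact mmp-1- cells, SMED30031555 (4.20) and SMED30023225 (2.83) were called higher. For 48 h against 6 h, the same tools called 0 of 14 beside an edgeR background of 9.75%. At an unadjusted edgeR p under 0.05 there were 1 of the 14 genes and 7095 of all 31435. The estimates there ran from -0.47 for SMED30031555 and -0.46 for SMED30009082 to 0.22 for SMED30005604 and 0.45 for SMED30005837 (SE 0.18, edgeR adjusted p 0.139).

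**Figure D3:**
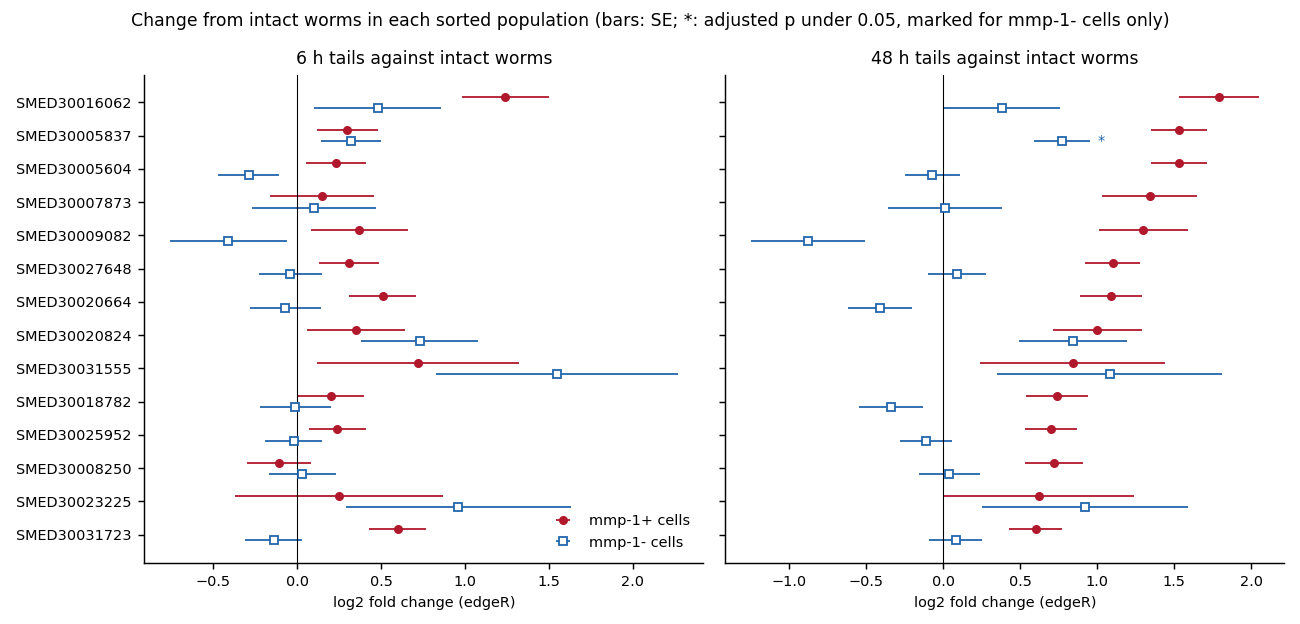
Log2 fold changes (edgeR) of 6 h and 48 h tails against intact worms for the 14 genes, in mmp-1+ cells (filled red circles) and mmp-1- cells (open blue squares); bars are SE, and asterisks mark an adjusted p under 0.05 in mmp-1- cells. At 48 h the mmp-1+ estimates run from 0.60 to 1.79, and the mmp-1- estimates scatter around 0 from -0.88 to 1.08, with SMED30005837 (0.77) called.

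The difference between the responses of both populations at 48 h, mmp-1+ minus mmp-1-, combined contrasts that the choice had used, so its values are descriptions. It was above 0 for 12 of the 14 genes, 118 of the 165 other sort-enriched genes and 14742 of 31435 genes tested. The medians on the log2 scale were 0.92, 0.16 and -0.02 in that order. SMED30009082 (2.18, SE 0.47) and SMED30005604 (1.60, SE 0.25) had the highest values. SMED30023225 (-0.30, SE 0.91) and SMED30031555 (-0.24, SE 0.94) had the lowest, with SE that exceeded the estimates, and they were -2.17 and -2.89 when the intact mmp-1- replicate 2 was left out. In edgeR, 2 of the 14 genes were past the adjusted limit, SMED30005604 and SMED30020664 (1.49, SE 0.29), beside a background of 0.175%. The number was 1 to 3 when 1 library was left out and 5 with DESeq2. SMED30005604 was past the limit under all 25 alternatives and SMED30020664 under 9 of them. At 6 h, edgeR, DESeq2 and limma with voom put 0 of the 14 genes past the limit, and edgeR put 0% of all genes past it. At an unadjusted p under 0.05 edgeR had 1 of the 14 and 926 of all genes. The 6 h values ran from -0.83 for SMED30031555 (SE 0.93) and -0.71 for SMED30023225 (SE 0.91) to 0.76 for SMED30016062 (SE 0.46) and 0.78 for SMED30009082 (SE 0.46).

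The limit on the rise separated genes with close values. Just inside the limit on the rise were SMED30031723 at 0.61 and SMED30023225 at 0.67, and just outside it were SMED30014062 at 0.55 and SMED30003584 at 0.43. The smallest sort difference inside was 0.95, for SMED30008250, and SMED30008778, with a rise of 1.47, fell outside at 0.65. The number of genes found was 10 to 17 when 1 library was left out, 20 with TMM-scaled CPM and 10 with a pseudocount of 5 CPM. Of the 14 genes, 7 were found under each of 27 settings, namely SMED30016062, SMED30005837, SMED30005604, SMED30027648, SMED30020664, SMED30020824 and SMED30025952. SMED30031723 was found under 20 of them and SMED30008250 under 21. Without replicate 2 of the intact mmp-1+ cells, or when replicate 2 of the 48 h mmp-1+ cells was left out, 10 of the 14 remained, and SMED30008250, SMED30023225 and SMED30031723 were lost either way.

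The Slide-seq sections gave a measure that the choice had not used. In them 13346 and 12122 beads lay over tissue at 48 h, against 8770 and 14281 beads at 6 h, with medians of 1000 and 865.5 unique molecular identifiers (UMIs) per bead at 48 h, against 737 and 557 UMIs at 6 h. The sections of a time point come from 1 block, so the times were set side by side without a test. Each section includes the intact animal of its block, which no source used here tells apart from the tails. Each section shared 11 to 13 bead barcodes with the others, out of 24821 to 32319 beads.

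Of the 14 genes, 10 had at least 200 UMIs over the 4 sections. The 48 h sections held more tissue UMIs, 19513418 and 17362873, against 9378927 and 12034110 at 6 h. A gene high at 48 h therefore passed this pooled limit more easily, among the 14 and among all genes. SMED30020824, for example, had 140 and 162 UMIs at 48 h, against 30 and 52 at 6 h. The counts at that depth are read with this limit. The other 4 were SMED30016062 (27 UMIs), SMED30007873 (60), SMED30005837 (74) and SMED30009082 (101), which are 4 of the 5 with the largest rise in sorted cells. Of the 10, 8 were higher in both 48 h sections than in both 6 h sections, against 52.7% of 10839 genes at that depth. For SMED30018782 and SMED30023225 the sections of both times overlapped. The median log2 ratio of 48 h over 6 h was 0.51 for the 10 genes, 0.04 for 123 other sort-enriched genes and 0.31 for all 10839. None of the 10 had 2-fold higher values in both 48 h sections than in both 6 h sections, where 3.84% of all genes had. Without section 2 of the 6 h block 4 of the 10 passed that limit, and without section 1 of the 48 h block 2 did. With fewer sections the limit is easier to pass for every gene. The share of all genes is not given for these subsets, so the counts cannot be set against 3.84%.

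Among these 10 genes the highest ratio was in SMED30027648 (1.25 on the log2 scale), with 14.04 CPM (12.4 to 15.8) and 14.1 CPM (12.3 to 15.9) in the 48 h sections, against 4.37 CPM (3.14 to 5.93) and 7.48 CPM (6.01 to 9.19) in the 6 h sections (exact 95% Poisson intervals, which cover counting error only). SMED30020824 followed (1.13), with 7.17 CPM (6.04 to 8.47) and 9.33 CPM (7.95 to 10.9) in the 48 h sections, against 3.20 CPM (2.16 to 4.57) and 4.32 CPM (3.23 to 5.67) in the 6 h sections. In both genes the intervals of the 48 h sections lay above those of the 6 h sections. SMED30025952 had a ratio of 0.43, with 37.9 CPM (35.2 to 40.7) and 43.2 CPM (40.2 to 46.4) in the 48 h sections, against 26.8 CPM (23.6 to 30.3) and 33.2 CPM (30.1 to 36.7) in the 6 h sections. Its 48 h section 1 and 6 h section 2 had overlapping intervals. SMED30018782 was the only one of the 10 with a ratio below 0 (-0.12), with 7.07 CPM (5.94 to 8.36) and 7.78 CPM (6.52 to 9.20) in the 48 h sections, against 6.72 CPM (5.16 to 8.59) and 9.47 CPM (7.81 to 11.4) in the 6 h sections. All 4 intervals overlapped. SMED30023225 had 246 CPM (239 to 253) and 276 CPM (268 to 284) in the 48 h sections, against 117 CPM (109.9 to 124) and 255 CPM (246 to 264) in the 6 h sections, so the 6 h sections differed from each other by more than section 2 differed from the 48 h block. Of the genes under the limit on UMIs, SMED30009082 (2.89-fold) and SMED30007873 (2.82-fold) had higher ratios than any of the 10, against 2.37-fold for SMED30027648, with both 48 h sections above both 6 h sections. These ratios rest on few UMIs, 8 and 9 for SMED30009082 and 5 and 5 for SMED30007873 in the 6 h sections. For both genes, intervals of the 2 times overlapped. SMED30009082 had 1.16 to 2.37 CPM in 48 h section 1, against 0.368 to 1.68 CPM in 6 h section 1. SMED30007873 had 0.614 to 1.64 CPM in 48 h section 2, against 0.173 to 1.24 CPM in 6 h section 1. SMED30005837 differed within the 48 h block, with 0.359 CPM (0.144 to 0.739) and 2.82 CPM (2.09 to 3.73) in the 48 h sections, against 0.640 CPM (0.235 to 1.39) and 0.997 CPM (0.515 to 1.74) in the 6 h sections.

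**Figure D4:**
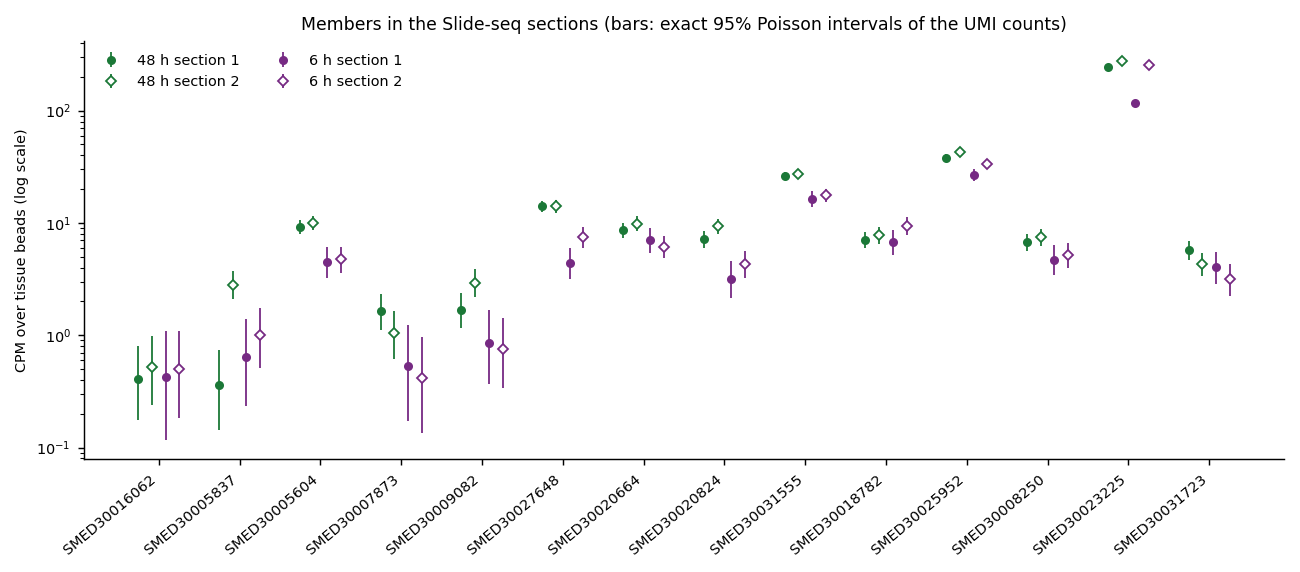
CPM over tissue beads on a log axis for the 14 genes in the 48 h sections (green) and the 6 h sections (purple), with circles for section 1 and diamonds for section 2 of a block; bars are exact 95% Poisson intervals of the UMI counts. SMED30005604, SMED30027648, SMED30020824 and SMED30031555 have both green values above both purple ones, while SMED30018782 and SMED30023225 overlap.

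Relative to the tissue edge, most of the genes were lower in the rim at 48 h by the sign of the difference, and were mixed at 6 h. The rim was taken as the 1 in 3 tissue beads nearest to a position outside tissue, and rim beads held fewer UMIs, with medians of 690, 476, 411 and 385 in 48 h sections 1 and 2 and 6 h sections 1 and 2, against 1209, 1131, 994.5 and 676 in the interior. Of the 10 genes with at least 200 UMIs, 1 was higher in the rim in all 4 sections, against 26.8% of all genes, and 2 were lower in the rim in all 4, against 14.5%. The sections were also split by time after the values had been seen. In both 48 h sections, 9 of the 10 were lower in the rim, all but SMED30020664. A lower rim value in both was found for 36% of all genes and 52% of the 123 other sort-enriched genes. These counts take the direction alone, and SMED30018782 was nearly level in 48 h section 2 (7.75 CPM in the rim, 7.78 CPM in the interior). For SMED30023225 and SMED30020824 the Poisson intervals of rim and interior lay apart in both 48 h sections. For the rest of the 9 they overlapped in at least 1 of these sections. In both 6 h sections 2 of the 10 were lower, against 20.2% of all genes. There 4 of the 10 were higher, against 50.7% of all genes and 42.3% of the 123 other sort-enriched genes. In that section order, SMED30020664 had 10.9, 13.6, 9.22 and 8.30 CPM in the rim, against 7.88, 8.87, 6.46 and 5.47 CPM in the interior. SMED30031555 had 20.1, 21.03, 11.3 and 15.2 CPM in the rim, against 28.02, 29.02, 17.8 and 18.5 CPM in the interior. SMED30031723 had 3.64, 3.04, 3.59 and 3.11 CPM in the rim, against 6.40, 4.66, 4.17 and 3.17 CPM in the interior. SMED30020664 thus stood on the other side from these. As the mean difference in log2(CPM + 1) over the sections, SMED30020664 was at 0.49, SMED30031723 at -0.34 and SMED30031555 at -0.45, with a median of -0.17 over the 10 genes and 0.07 over all genes. SMED30023225 and SMED30020824 differed between the blocks. SMED30023225 had 149, 197, 108 and 267 CPM in the rim, against 276, 297, 119 and 251 CPM in the interior. SMED30020824 had 3.64, 4.98, 4.10 and 4.50 CPM in the rim, against 8.29, 10.5, 2.96 and 4.27 CPM in the interior, so that both genes were lower in the rim in both 48 h sections, and neither was so in both 6 h sections.

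Beads that captured SMED30023225 also captured more of the other genes, a comparison added after the data had been seen. It was present on 11.7% and 12.1% of tissue beads in the 48 h sections, against 6.01% and 8.56% in the 6 h sections. Those beads were deeper, with median UMIs of 2114.5, 2306, 1646 and 1294 in 48 h sections 1 and 2 and 6 h sections 1 and 2, against 885, 752, 700 and 507 on beads without it, and the part of depth in what follows was not tested. As a share of the UMIs of those beads, all 9 other genes with at least 200 UMIs were higher with it than without it in all 4 sections, against 22.1% of all genes. The 165 sort-enriched genes behaved alike, since 120 of the 123 at that depth, or 97.6%, were higher too, so the pattern was not particular to the 14 genes. In the same section order, SMED30031555 had 93.9, 97.6, 102 and 77.8 CPM on beads with SMED30023225, against 8.11, 5.08, 6.54 and 5.96 CPM on beads without it. SMED30020824 had 25.9, 30.4, 20.7 and 16.8 CPM on beads with SMED30023225, against 2.21, 2.66, 1.19 and 1.89 CPM on beads without it. These 2 genes had the largest mean differences in log2(CPM + 1), at 3.67 and 3.02. SMED30020664 had the smallest, at 0.71, with 14.1, 15.8, 8.27 and 10.2 CPM on beads with SMED30023225, against 7.14, 7.97, 6.90 and 5.36 CPM on beads without it.

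**Figure D5:**
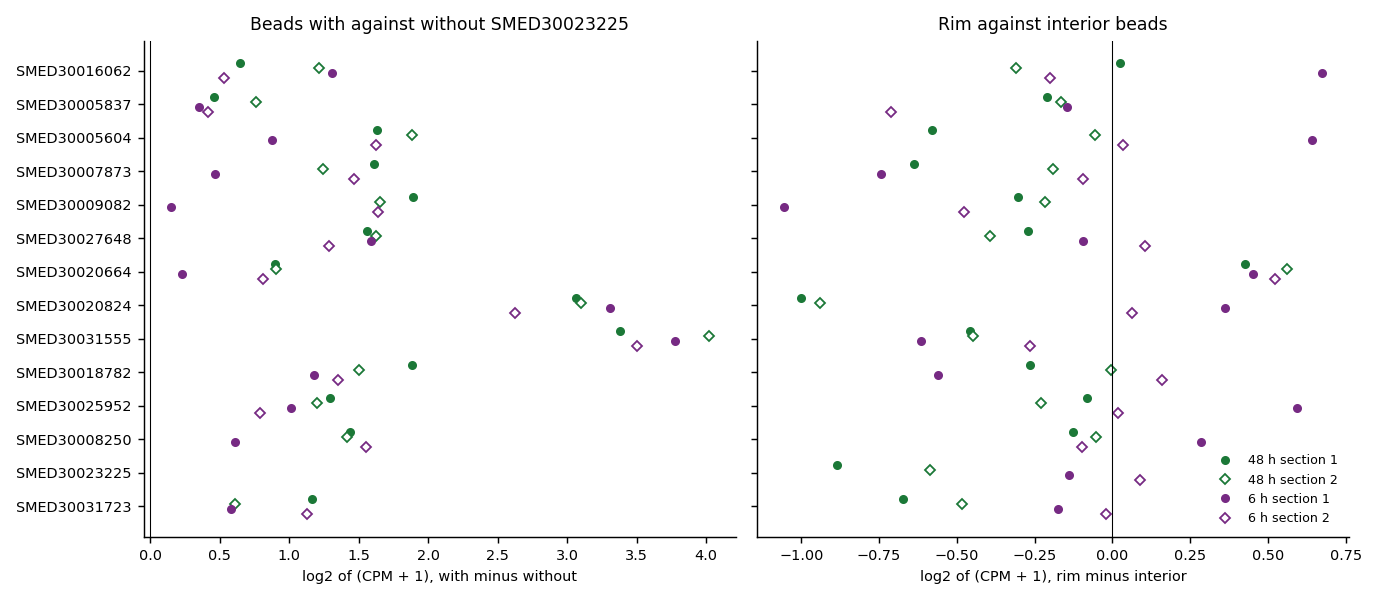
Difference in log2(CPM + 1) for each gene between beads with and without SMED30023225 (left) and between rim and interior beads (right), in the 48 h sections (green) and 6 h sections (purple), with circles for section 1 and diamonds for section 2. On the left SMED30031555 and SMED30020824 lie farthest to the right, at means of 3.67 and 3.02, and on the right SMED30020664 alone lies above 0 in all sections.

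The pieces of tissue within a section differed widely in these genes. Pieces were groups of at least 200 tissue beads linked by position, 12 and 12 in the 48 h sections, against 7 and 11 in the 6 h sections. SMED30023225 ranged from 22.5 to 639 CPM and from 1.81 to 511 CPM over the pieces of 48 h sections 1 and 2, against 38.3 to 258 CPM and 6.75 to 1011 CPM over the pieces of 6 h sections 1 and 2. The other 13 genes together ranged less, from 79.5 to 231 CPM and 49.3 to 219 CPM at 48 h, against 57.4 to 124 CPM and 36.0 to 220.3 CPM at 6 h. For SMED30023225 the spread between pieces of a section was wider than the difference between sections.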

How the data were processed

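The members and lists described here were chosen with earlier results of these data known. Of 24 samples, 18 sorted-cell libraries and 4 sections were used, and the 2 single-cell samples (unc-22 and tub-a RNAi) were left out. The labels' protocols state that cDNA of the sorted cells was made with SMART-Seq v4 (10 PCR cycles) and libraries with Nextera XT (12 cycles). These reads carry no strand information or molecular identifiers, so they do not count molecules. The Poisson intervals belong to the UMI counts of the sections and cover counting error only. The submitters' processing notes list STAR 2.7.3a, RSEM and bcl2fastq 2.20, and the role of each is not given there. The deposited sorted-cell table of the authors holds raw counts of reads for each identifier, not normalized. Their 4 category rows were kept out; unmapped reads were 12.1% to 16.1% and multimapping reads 5.67% to 9.21% of all reads, so genes with near-identical copies are uncertain. For the sections, the deposited values are raw UMI counts per gene and bead, with bead positions in a unit that the labels do not name.

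CPM used column totals. Tests used edgeR 4.0.16 in R 4.3.3 on 31435 genes left by filterByExpr, all 14 genes among them, with TMM scaling, a mean for each of 6 groups, the quasi-likelihood test and Benjamini-Hochberg adjustment over all genes (adjusted p under 0.05). SE is the absolute log2 fold change over the square root of F. Alternatives were DESeq2 1.42.0, limma 3.58.1 with voom, other scalings, no filter, the compared groups only, the replicate number as a block, and each library left out. Per the labels, the replicates were biological ones with 100 worms each. Libraries of a group differed by a chi-square per gene of 11.7 to 106, far beyond counting noise. Same-numbered libraries of both populations at a time had deviations correlated at -0.003 to 0.281 (over 0.1 in 3 of 9 pairs), so the numbers were not taken to pair samples.

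Tissue beads had at least 50 UMIs and a mean count over the 20 nearest bead positions above the upper limit of a 3-class Otsu split, a limit chosen after bead maps had been seen. Genes with at least 200 UMIs were compared as CPM over tissue beads, with 1 CPM added before log2 in the comparisons of beads. Beads were linked into pieces within 40 position units. Folds are named for the 2 highest and 2 lowest genes of each comparison, besides the 4 with the most reads at 48 h and those nearest the limits; other genes named in the bead and rim comparisons were chosen after their values were seen. Simulated data were used to test the edgeR contrast of 48 h with intact worms in mmp-1- cells and the ratio of rim to interior. The other calculations were not tested in this way.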

Additional observations from a re-analysis of the deposited data

Results flagged for a closer look

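In the edgeR test of the difference between the 48 h responses, 2 of the 14 genes were past the adjusted limit, beside 0.175% of 31435 genes. SMED30005604 changed by 1.60 more on the log2 scale in mmp-1+ than in mmp-1- cells, and SMED30020664 by 1.49 more. SMED30005604 was past the adjusted limit in all 25 alternatives, at 1.35 to 1.72, and SMED30020664 in 9 of 25, at 1.29 to 1.68. Both sort differences and the rise entered the choice of the genes, so these values describe them and are no separate evidence.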

How the results depend on the processing

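The number of the 14 genes called, or meeting a limit, stayed within 1.5 times its reported value under most alternatives. Part of this follows from the choice of the genes. It held the sort calls at 14 of 14 and shaped the 14 of 14 above intact worms at 48 h, which never moved. The opening tally is thus no measure of how stable the other counts were. For the counts below, the share of all genes under each alternative is not given. In mmp-1- cells, the count for 48 h against 6 h was 1 with total-count scaling and 1 with the compared groups only, the count for 48 h against intact worms was 1 to 4 and that for 6 h against intact worms 0 to 2 when 1 library was left out. In mmp-1+ cells, leaving out 1 library gave 1 to 2 genes at 6 h against intact worms, 2 to 8 at 48 h against 6 h and 7 to 12 at 48 h against intact worms, and the compared groups only gave 11 at 48 h against 6 h. With the replicate number as a block, the 6 h count in mmp-1+ cells was 1 and the count for the difference of the 48 h responses was 1, and no other count moved by over 1.5 times; the samples share only a number. That difference also gave 1 gene with the compared groups only, 1 with limma and voom, 5 with DESeq2 and 1 to 3 with a library left out.

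In the sections, the count of genes 2-fold higher at 48 h was 1 with a 2-class tissue limit, 3 with a limit of 1.5-fold and 0 to 4 with a section left out. The share of all genes is not given for these settings either. The count higher in both 48 h sections was 3 of the 4 genes with at least 500 UMIs, and 7 to 10 of the 10 with a section left out. The median log2 ratio was 0.65 with at least 50 UMIs and 0.45 to 0.65 with a section left out. The count lower in the rim was 1 without the neighbourhood filter, 1 with a rim of 1 in 2 beads, 5 of the 13 genes with at least 50 UMIs, 1 of the 4 with at least 500 UMIs and 2 to 5 with a section left out. The count higher in the rim was 0 with the 2-class limit, 0 without the neighbourhood filter, 0 of the 4 genes with at least 500 UMIs and 1 with any section left out.

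Signs turned in estimates that were small or smaller in size than their SE. For SMED30031723 at 48 h against 6 h in mmp-1+ cells the value was 0.13 with total-count scaling, 0.01 with the compared groups only and -0.19 to 0.10 with a library left out. With a library left out, SMED30031555 ranged from -1.08 to 0.18 at 48 h against 6 h in mmp-1- cells and between -0.04 and 0.21 in mmp-1+ cells. In the contrast of 6 h with intact worms in mmp-1+ cells SMED30007873 ranged from -0.12 to 0.33 and SMED30008250 from -0.31 to 0.03. The differences of the 48 h responses ranged from -2.89 to 0.37 for SMED30031555 and from -2.17 to 0.30 for SMED30023225. The cause was not tested. Precision is limited by 3 libraries per group and, in the sections, by 1 block per time and by the 4 genes with few UMIs.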
